A study of Danio rerio with 12 samples.

Results

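The baseline transcriptome of wild-type zebrafish larvae was read from the 6 samples whose titles give the genotype elmo2+/+, out of 12 samples in the series. The other 6 carry the elmo2-/- genotype and were left out. Each sample was a pool of 30 whole larvae at 120 hours post fertilization (hpf), snap frozen before total RNA was isolated and sequenced on a BGISEQ-500. The elmo2 line was made with CRISPR/Cas9 in the Tg(fli1:EGFP) reporter background, in which the fli1 promoter drives a green fluorescent protein in endothelial cells. The labels do not say whether the sequenced larvae carried the reporter. A pool averages its larvae, so that differences between single animals cannot be seen, and a whole larva mixes every tissue. In such bulk samples, fewer cells of a type and less RNA per cell cannot be told apart. Whether the pools came from separate clutches or collection times, and whether larvae for RNA had been kept in phenylthiourea to block pigment, was not stated.

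At 120 hpf a zebrafish larva swims freely, sees, and is using up its yolk while it turns to feeding. Trunk muscle makes up much of its body, the lens and retina are large for its size, and liver, pancreas and gut have become functional digestive organs. The liver secretes transferrin, fibrinogen, complement and the apolipoproteins that carry lipid in the blood, and the exocrine pancreas releases trypsin, chymotrypsin, elastase and other digestive enzymes. The larva also has working circadian clocks that are set by light, and a stress axis that signals through cortisol and its receptor, the glucocorticoid receptor.

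Levels are given as TPM, a share of transcripts that sums to 1000000 per pool, which take transcript length into account and can be compared between genes, and are written as mean ± SD over the 6 pools. Differences between pools of the same gene were measured on read counts scaled to library size (CPM) and by the trimmed mean of M values (TMM), as the highest pool divided by the lowest. A gene was called variable when this ratio reached 2-fold and its mean was at least 5 CPM. Such a call describes 6 libraries and is not a test, because each pool was sequenced as a single library.

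The 6 libraries were of nearly equal depth, between 20245232 and 20939679 estimated counts. Of 32520 listed genes, 3578 had 0 TPM in every pool, 24345 were above 0 in every pool, and 21292 had a mean of at least 1 TPM. A mean of 10 TPM was reached by 8574 genes, 100 TPM by 895 and 1000 TPM by 166. Per pool, 21014 ± 335 genes (SD, n = 6) stood at 1 TPM or more. No pair of pools agreed within counting error: the squared difference between 2 pools, divided by the counting variance of the gene, averaged 11.8 to 67.2 over genes, where counting alone would average 1, and had a median of 1.90 to 8.54.

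The pools did not stand at equal distances from each other. Correlations of log2 CPM across 15162 genes, which are not independent replicates, ranged from 0.942 between pools 4 and 6 to 0.985 between pools 5 and 6. The first principal component held 59.8% of the variance, with pools 4 and 1 at 28.7 and 25, pools 2 and 3 near its middle at 1.64 and -0.00105, and pools 5 and 6 at -19.5 and -35.8. The second component held 15.5% and put pools 3 and 4, at 16.7 and 12.4, apart from pools 1, 2 and 5, at -15.0, -10.4 and -6.03, with pool 6 at 2.34 between them. The replicate numbers are the library numbers 1 to 6. No label gives a batch, so a shared collection or handling of pools could not be examined.

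A small number of highly expressed genes held a large share of all TPM. The 10 most abundant genes held 16.97% ± 0.704 of all TPM, the 100 most abundant 45.4% ± 1.23 and the 1000 most abundant 74.9% ± 1.23. The first was actc1b, a muscle actin, at 25936 ± 2609 TPM, followed by pvalb1 at 21760 ± 2225 TPM and pvalb2 at 21512 ± 2380 TPM, which encode parvalbumins, calcium-binding proteins that help fast muscle to relax. In all 3 muscle genes pool 1 was the lowest, at 21504, 18015 and 17120 TPM. The mitochondrially encoded mt-atp8 came next at 19482 ± 2481 TPM, and with it MT-CO2, MT-CO3, MT-CO1 and MT-ATP6 at 16322, 16173, 15442 and 13306 TPM. These are subunits of cytochrome c oxidase and of ATP synthase. In TMM-scaled CPM, which ignore length, mt-atp8 had only 436, against 17487 for MT-CO1 and 5339 for MT-ATP6. Its rank in TPM thus rests on the short transcript length that the quantification assigned to it.

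Among the 25 most abundant genes, 9 were on the list of fast skeletal muscle genes, 7 were mitochondrially encoded and 3 encoded cytosolic ribosomal proteins. The others included eef1a1l1, the translation elongation factor that brings aminoacyl-tRNA to the ribosome, at 8629 ± 339 TPM, and krt4, a keratin of the skin surface, at 4646 ± 854 TPM. The 25th, ENSDARG00000080337 at 4224 ± 1000 TPM, has no symbol in the table used. None of the 25 reached 2-fold between pools, and their coefficients of variation (CV) on TMM-scaled CPM lay between 5.46% and 22.4%. Of the 100 most abundant genes, 50 were ribosomal, 15 belonged to fast muscle and 12 were mitochondrially encoded, and 4 were variable. Over all genes with a mean of at least 5 CPM 9.41% were variable, and of the 115 genes at 1000 CPM or more 7, 6.09%. The counts among the 25 and 100 lie near the latter share and are not read as a trait of abundant genes.

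**Figure D1:**
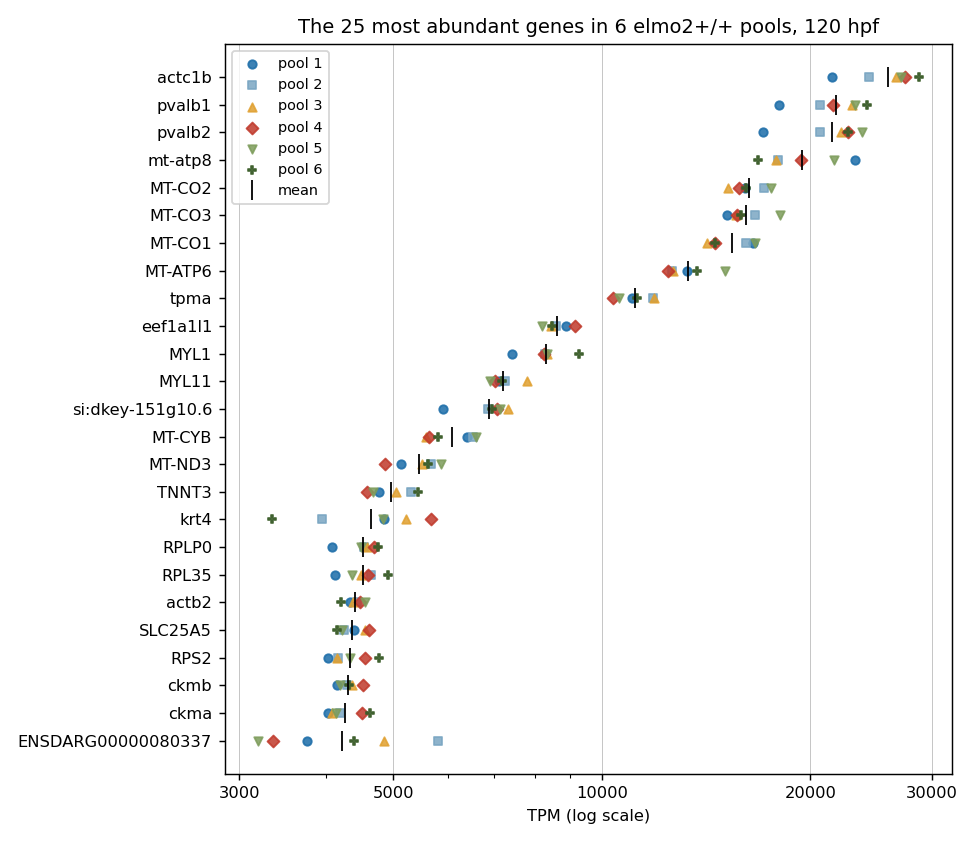
The 25 most abundant genes, ordered by mean TPM from the top, with TPM on a log axis; each marker is a pool of 30 larvae and the vertical tick is the mean of 6 pools. Pool 1 is the lowest in the 3 leading muscle genes, and the highest of the 25, actc1b, has a mean of 25936 TPM.

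Summed over gene lists, protein synthesis, muscle contraction and respiration came first. The 85 genes of cytosolic ribosomal proteins summed to 174549 ± 6880 TPM, 17.5% of the total. The 48 fast muscle genes summed to 138679 ± 8018 TPM, 13.9% of the total, and the 13 mitochondrially encoded proteins to 110996 ± 7096 TPM, 11%. Nuclear genes of the respiratory chain reached 27131 ± 1800 TPM and translation factors 21279 ± 650 TPM. Slow skeletal muscle, led by myl13, a myosin light chain at 440 ± 27.3 TPM, summed to 1546 ± 141 TPM, far below fast muscle, and heart muscle genes to 237 ± 56.1 TPM.

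The eye was the next large contributor. Lens crystallins, the transparent structural proteins of the lens, summed to 31196 ± 4031 TPM over 58 genes, of which 29 gamma M crystallins made up 16292 ± 2314 TPM and 13 beta crystallins 13566 ± 1676 TPM. Many gamma M crystallins are near copies of each other, and how reads were divided among them was not stated, so their sum is firmer than their single values. The 3 alpha crystallin genes reached only 81.6 ± 14.9 TPM together. Photoreceptor genes summed to 13923 ± 2234 TPM, with OPN1SW, a short-wavelength cone opsin, at 2889 ± 486 TPM, and GNGT2, a cone transducin subunit, at 1547 ± 305 TPM.

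Other tissues followed at lower sums. Skin keratins reached 15001 ± 2029 TPM, apolipoproteins 10542 ± 5005 TPM, liver enzymes 5495 ± 1653 TPM, neuronal genes 4519 ± 488 TPM, enterocyte genes 3951 ± 937 TPM, exocrine pancreas 3387 ± 1465 TPM, erythroid genes 3168 ± 900 TPM and liver plasma proteins 3103 ± 1489 TPM. The leading neuronal gene was sncb, which encodes a synuclein of synaptic terminals, at 651 ± 112 TPM, and the leading glial gene FABP7, a fatty-acid binding protein of radial glia, at 558 ± 46.6 TPM. Melanophore genes such as TYRP1, a melanin-synthesis enzyme at 149 ± 11.2 TPM, summed to 620 ± 29.7 TPM. Genes of blood and lymphatic endothelium, led by FLI1, the transcription factor whose promoter drives the reporter, at 64.3 ± 13.2 TPM, summed to 329 ± 38.2 TPM. The 20 endocrine pancreas genes summed to 348 ± 20.5 TPM, of which ins, the insulin gene, gave 43.0 ± 24.7 TPM.

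Some programmes were barely present. The 31 germ line genes summed to 12.03 ± 1.302 TPM with none at a mean of 5 CPM. The 8 vitellogenins, yolk precursors made by the liver of egg-laying females, summed to 0.878 ± 1.07 TPM, with pool 6 at 2.98 TPM and the other 5 between 0.113 and 0.948 TPM. The 13 pituitary hormone genes summed to 15.5 ± 10.6 TPM, of which 36.8 TPM in pool 1 and 8.45 to 13.5 TPM in the others.

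Between pools, 1426 of 15162 genes with a mean of at least 5 CPM, 9.41%, were variable, and the median ratio of the highest to the lowest pool was 1.37. The median CV was 11.8%, against 4.95% from counting alone. Counting error fell with the level far more than the spread between pools did. Genes at 1000 CPM or more had a median CV of 10.8% and a median counting CV of 0.518%, and genes between 5 and 20 CPM had 13.3% and 6.89%. The common biological coefficient of variation, estimated with edgeR, was 0.167, and fell to 0.150 without pool 6.

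The variable genes were spread unevenly over the pools. Pool 6 was the lowest in 947 of them and pool 4 or pool 1 the highest in 575 and 483. In 754 of the variable genes, 52.9%, pools 1 and 4 were the 2 highest, and in 169, 11.9%, pools 3 and 4 were. Pools 1 and 2 were the 2 highest in 152 and pools 5 and 6 in 113. Without pool 6 the count fell to 905 of 15192 genes, 5.96%, and without pool 1 to 1153 of 15054 genes, 7.66%.

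Over gene lists, the summed TPM of the highest pool was at least 2-fold that of the lowest in 7 of the 50 lists with a mean sum of at least 5 TPM. The vitellogenins, below that level, had the widest ratio of the 51 lists, 26.3.

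**Figure D2:**
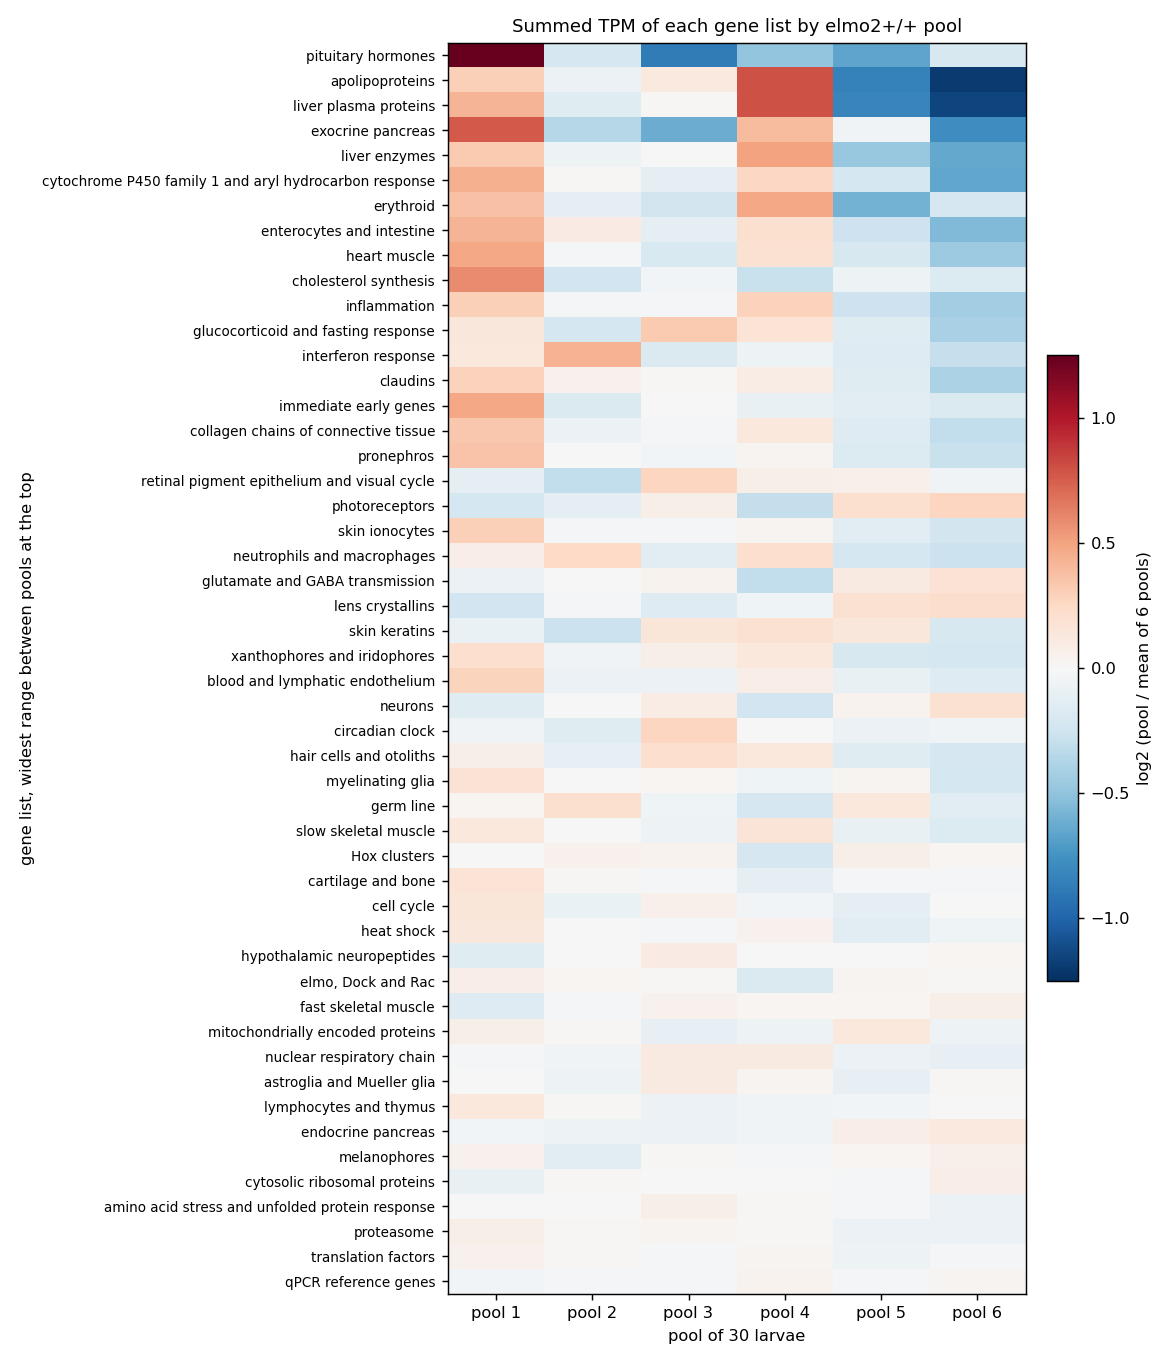
Summed TPM of 50 gene lists (rows, widest range between pools at the top) in the 6 pools (columns), as log2 of the pool over the mean of 6 pools; red is above and blue below the mean. Apolipoproteins and liver plasma proteins are red in pool 4 and blue in pools 5 and 6, pituitary hormones and cholesterol synthesis are red in pool 1, and ribosomal proteins and reference genes at the foot are nearly white.

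Genes of the liver differed widely between pools. Of the 39 liver plasma protein genes at 5 CPM or more, 38 were variable, beside 9.41% of all genes, and their median ratio was 6.13 against 1.37 over all genes. In 37 of the 39 pool 4 was the highest, and in 36 pool 6 was the lowest, beside 21.6% and 24.9% of all genes. Of the apolipoprotein genes 16 of 19 were variable with a median ratio of 3.17, and of the liver enzyme genes 26 of 33 with a median ratio of 3.48. Leaving out any pool left 36 or more liver plasma protein genes variable, and without pool 6 the counts were 38 of 41, 14 of 20 and 23 of 33.

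Values of the leading members show the same order of pools. Apoa1b, a main protein of high-density lipoprotein, stood at 1336 TPM in pool 6, 1704 TPM in pool 5, 3209, 3398 and 4336 TPM in pools 2, 3 and 1, and 6203 TPM in pool 4. Apoa2, a second high-density lipoprotein protein, ranged from 1250 TPM in pool 6 over a median of 3275 TPM to 6129 TPM in pool 4. Pools 5 and 6 thus lay below the other 4 in both genes, and pool 4 above all others.

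The same was seen for secreted liver proteins. The iron carrier transferrin, tfa, ranged from 224 TPM in pool 6 over a median of 448 TPM to 819 TPM in pool 4, and the retinol carrier RBP4 from 431 over 710 to 1015 TPM. Fabp10a, the liver fatty-acid binding protein and a common hepatocyte marker, ranged less, from 1290 TPM in pool 5 over 2062 to 2846 TPM in pool 4. APOB, the structural protein of very-low-density lipoprotein, had a median of 3.55 TPM and ranged from 1.04 TPM in pool 6 to 11.12 TPM in pool 4. It was named because it was among the 20 most variable genes, so its wide range follows from that choice.

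The exocrine pancreas had a related but different order. All 19 of its genes at 5 CPM or more were variable, beside 9.41% of all genes, with a median ratio of 3.44. Pool 1 rather than pool 4 was the highest in 18, beside 16.9% of all genes. Summed TPM were 5755 in pool 1, 4466 in pool 4, 3284 in pool 5, 2641 in pool 2, 2205 in pool 3 and 1972 in pool 6, so that pool 5 ranked above pools 2 and 3 here and below them for the liver. The trypsin gene prss1 ranged from 330 TPM in pool 6 over a median of 455 TPM to 938 TPM in pool 1. CELA1, an elastase, ranged from 620 TPM in pool 6 to 1214 TPM in pool 1. Without pool 1 the count was 15 of 18.

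Intestine, blood and heart showed smaller ranges. Of 33 enterocyte and intestine genes 14 were variable, beside 9.41% of all genes. FABP2, the intestinal fatty-acid binding protein, ranged from 463 TPM in pool 6 over 690 to 1013 TPM in pool 1. Of 17 erythroid genes 11 were variable, and the count was 7 without pool 4 (7.82% of all genes) or without pool 5 (9.02%). Alpha globins summed to 1474 ± 465 TPM and beta and epsilon globins to 1588 ± 429 TPM. Both globin sums were highest in pool 4, at 2163 and 2152 TPM, and lowest in pool 5, at 959 and 1062 TPM. Of 12 heart muscle genes 8 were variable, but 4 without pool 6, beside 5.96% of all genes without that pool. The cardiac light chain MYL7 ranged from 26.7 TPM in pool 6 over 38.6 to 51.8 TPM in pool 1.

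The islet hormone genes ins, GCG and sst2, of which GCG and sst2 were chosen after their values were seen, followed the liver more than the exocrine pancreas. The insulin gene ins stood at 15.6, 25.9, 36.6, 42.0, 51.5 and 86.6 TPM in pools 6, 5, 2, 3, 1 and 4. GCG, the glucagon gene, was likewise lowest in pool 6 at 1.78 TPM and highest in pool 4 at 9.65 TPM, around a median of 3.92 TPM. The somatostatin gene sst2 was at 0.172 TPM in pool 6 and between 3.32 and 11.3 TPM in the other 5. GCG and sst2 had means of only 1.51 and 1.61 CPM, below the 5 CPM limit used for calls, so their values rest on few reads. In pool 6 sst2 had 0.049 CPM. The list of endocrine pancreas genes as a whole, which includes genes that brain also expresses, had 2 of 11 members variable, beside 9.41% of all genes. It did not follow the liver: pool 6 was the highest in 8 of the 11 and pool 4 in 2, beside 29.4% and 21.6% of all genes. In TMM-scaled CPM its leading members NEUROD1 and PAX6 were highest in pool 6, at 263 and 116, beside 140 and 71.3 in pool 4.

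Lens, photoreceptor and neuronal genes were ordered the other way, with narrower ranges. Of 45 lens crystallin genes pool 6 was the highest in 27 and pool 1 the lowest in 35, beside 29.4% and 23.6% of all genes, and of 43 photoreceptor genes pool 6 was the highest in 23 and pool 1 the lowest in 21. Variable were 7 of the lens genes and 8 of the photoreceptor genes, beside 9.41% of all genes. Without pool 1 the lens count was 4 of 45, near the 7.66% of all genes. The crystallin CRYBB1 ranged from 2645 TPM in pool 1 over a median of 3246 TPM to 4282 TPM in pool 6. Of 36 neuronal genes none was variable, although pool 6 was the highest in 26 and pool 1 the lowest in 25. Summed in TPM, photoreceptor and neuronal genes were lowest in pool 4 instead, at 11322 and 3834 TPM. Of 27 glutamate and GABA transmission genes pool 6 was likewise the highest in 15, but pool 1 the lowest in only 6. Some other eye and brain lists did not follow the order of the lens in their sums. Myelinating glia genes summed highest in pool 1, at 529 TPM, and lowest in pool 6, at 401 TPM. Both astroglia genes and those of the retinal pigment epithelium summed highest in pool 3, at 2210 and 1104 TPM, the former lowest in pool 5 at 1901 TPM and the latter in pool 2 at 739 TPM. TPM are shares of a fixed total and are not scaled by TMM, whereas these counts of genes rest on TMM-scaled CPM.

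**Figure D3:**
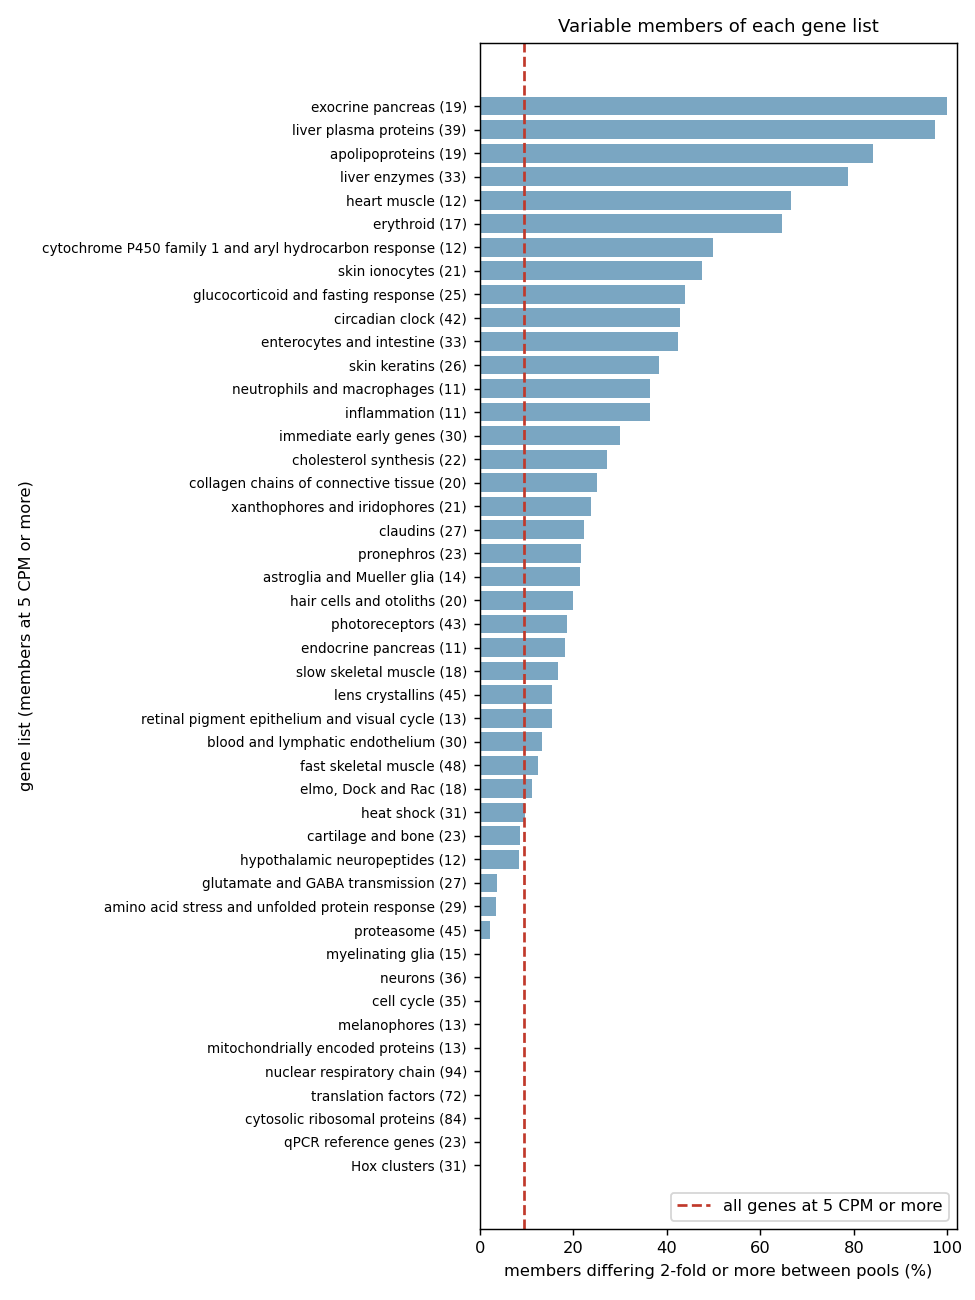
Percentage of members that differed 2-fold or more between the highest and lowest pool, for the 46 lists with at least 10 members at 5 CPM or more (number in parentheses); the dashed line marks 9.41%, the share over all 15162 genes. Exocrine pancreas and the liver lists reach the right side, and 10 lists have no variable member.

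Clock genes split the pools in another way. Of 42 circadian clock genes 18 were variable, beside 9.41% of all genes. In 11 of these 18 pools 3 and 4 were the 2 highest, beside 11.9% of all variable genes, which is 1.11% of all genes. The genes named next were chosen after their values were seen. PER2 was also among the 20 most variable genes, which is itself a choice by spread between pools. PER2, a light-induced repressor of the clock, stood at 13.9 TPM in pool 3 and 12.6 TPM in pool 4, and between 2.75 and 3.05 TPM in the other 4. CRY1 (ENSDARG00000045768), its partner repressor, stood at 51.9 and 49.2 TPM in pools 3 and 4, and between 18.5 and 21.6 TPM in the others. The gap between the 2 sets of pools was several times the range within either.

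Further genes chosen in this way gave the same split. NR1D1, the nuclear receptor REV-ERB alpha that represses bmal1, was at 81.0 and 66.5 TPM in pools 3 and 4 and between 32.5 and 47.9 TPM elsewhere. Tefa, a light-responsive bZIP factor, was at 67.2 and 58.9 TPM against 26.2 to 36.9 TPM. In the opposite direction, aanat2, the melatonin-synthesis enzyme of the pineal gland, was at 2.85 and 2.71 TPM in pools 3 and 4, at 4.34 TPM in pool 1, and between 7.21 and 9.16 TPM in pools 2, 5 and 6. Rorcb, a nuclear receptor that binds the same element as NR1D1, showed 2.89 and 2.11 TPM in pools 3 and 4, 4.03 TPM in pool 1, and 6.03 to 8.41 TPM in the other 3. The 3 leading members of the list, named by rule, split less clearly in TPM. BHLHE40, a repressor of clock genes, was at 116 and 96.8 TPM in pools 3 and 4 and between 65.2 and 86.0 TPM elsewhere. NR1D2, a relative of NR1D1, was at 87.1 TPM in pool 3, but pool 4, at 71.2 TPM, lay within the 60.23 to 73.1 TPM of the others. In TMM-scaled CPM, however, pools 3 and 4 were its 2 highest, at 251 and 225 against 166 to 200 in the others. Cry3a, a cryptochrome, was lowest in pool 4 at 67.2 TPM, with pools 1 and 3 alike at 90.9 and 91.7 TPM. In TMM-scaled CPM pool 4 was still the lowest for cry3a, at 197, followed by pool 1 at 210 and pool 3 at 238. Pool 1 sided with pools 2, 5 and 6 for PER2 and CRY1 and stood between the sets for aanat2 and rorcb.

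Some genes that respond to glucocorticoid receptor activity were high in the same 2 pools. Of 25 genes of the glucocorticoid and fasting list 11 were variable, beside 9.41% of all genes. In 8 of the 11 pools 3 and 4 were the 2 highest, beside 11.9% of all variable genes, though this list shares PER1 genes with the clock list. FKBP5, a co-chaperone that the receptor induces strongly, stood at 59.4 and 50.4 TPM in pools 3 and 4 and between 8.59 and 19.2 TPM in the others. KLF9, a zinc-finger factor that the receptor also induces, stood at 42.5 and 38.2 TPM against 9.40 to 16.9 TPM. These 2 genes were chosen after their values were seen. In TPM the leading member of the list, CEBPD, a transcription factor at 136 ± 34.6 TPM, did not split this way: pool 1 reached 173 TPM beside 176 TPM in pool 3 and 149 TPM in pool 4. In TMM-scaled CPM pools 3 and 4 were its 2 highest, at 158 and 144, just above 140 in pool 1. The next members did not split clearly in TPM either. Sgk1, a kinase that the receptor induces, was highest in pool 1 at 53.0 TPM, with 38.8 TPM in pool 3 and 47.8 TPM in pool 4. In TMM-scaled CPM sgk1 was highest in pool 4, at 61.4, with 55.4 in pool 1 and 50.6 in pool 3. Tsc22d3, a glucocorticoid-induced leucine zipper protein, was at 79.2 and 73.2 TPM in pools 3 and 4, just above 71.0 TPM in pool 1. In TMM-scaled CPM tsc22d3 did split, with 99.9 and 99.4 in pools 3 and 4 against 69.6 to 80.6 in the others. Without pool 3 the number of variable genes was 14 of 42 for the clock and 7 of 25 for this list, beside 9.07% of all genes. Without pool 2 it was 13 of 42 and 10 of 25, beside 8.94% of all genes. Without pool 6 it was 17 of 42 and 7 of 25, beside 5.96% of all genes. The liver values of pools 3 and 4 differed from each other, so that this split crossed that of the digestive organs. Time of collection and lighting were not stated, and their part in this split was not tested.

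Pool 1 stood alone in a further set of genes. Of 30 immediate early genes, which are transcribed within minutes of neuronal activity or stress, 9 were variable, 8 of them with pool 1 highest. Over all 15162 genes 1426, 9.41%, were variable, 483 of them with pool 1 highest, which is 3.19% of all genes. Without pool 1 only 3 of the 30 immediate early genes were variable, beside 7.66% of all genes. NPAS4, a transcription factor induced by neuronal activity, stood at 21.4 TPM in pool 1 and between 4.07 and 9.20 TPM in the others. FOS stood at 51.9 TPM against 16.2 to 26.7 TPM, egr1 at 78.6 TPM against 35.0 to 48.7 TPM, and SOCS3, a feedback inhibitor of cytokine signalling, at 20.8 TPM against 6.27 to 8.61 TPM. Over the whole list pool 1 was the highest in 13 of the 30 genes, beside 16.9% of all genes. Of NPAS4, FOS, egr1 and SOCS3, egr1 is among the 3 leading members of the list, and the rest were chosen after their values were seen. NR4A1 of the same list, also chosen so, did not follow: it was highest in pools 3 and 4, at 17.7 and 16.1 TPM, with pool 1 at 10.8 TPM. The other leading members, IER5 and JUN, did not clearly follow either. IER5 was at 66.6 TPM in pool 1 and 68.2 TPM in pools 3 and 6, while JUN was highest in pool 1 at 53.5 TPM. In TMM-scaled CPM IER5 was highest in pool 6, at 75.1, and JUN in pool 4, at 77.4, with pool 1 at 65.3 and 71.7.

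Most sterol synthesis genes were also highest in pool 1, 16 of the 22 at 5 CPM or more, beside 16.9% of all genes. Of 22 cholesterol synthesis genes 6 were variable, all with pool 1 highest, beside 9.41% of all genes variable. Without pool 1 a single gene of the list was variable, beside 7.66% of all genes. MSMO1, a methylsterol monooxygenase, stood at 27.6 TPM in pool 1 and between 8.03 and 14.1 TPM in the others, and CYP51A1, which removes a methyl group from lanosterol, at 33.4 TPM against 10.98 to 18.2 TPM. Both were chosen after their values were seen. Of the leading members, FDPS stood at 33.1 TPM in pool 1 against 17.2 to 22.8 TPM, and LBR at 26.2 TPM against 21.3 to 23.2 TPM. Srebf2 was at 31.1 TPM in pool 1 but also at 30.0 TPM in pool 6. In TMM-scaled CPM srebf2 was highest in pool 6, at 108 beside 99.8 in pool 1. LBR was then nearly level, at 59.5 in pool 1 and 59.0 in pool 3. The pituitary hormone gh1, growth hormone, was at 20.7 TPM in pool 1 and between 1.24 and 4.21 TPM in the other 5, and POMC, the precursor of corticotropin and melanocyte-stimulating hormone, at 5.81 TPM against 0.511 to 1.41 TPM. None of the pituitary genes reached a mean of 5 CPM. In TMM-scaled CPM gh1 had 15.7 in pool 1 and 1.04 to 3.59 in the others, and its CV of 118.8% was 118.3% after removal of counting variance.

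**Figure D4:**
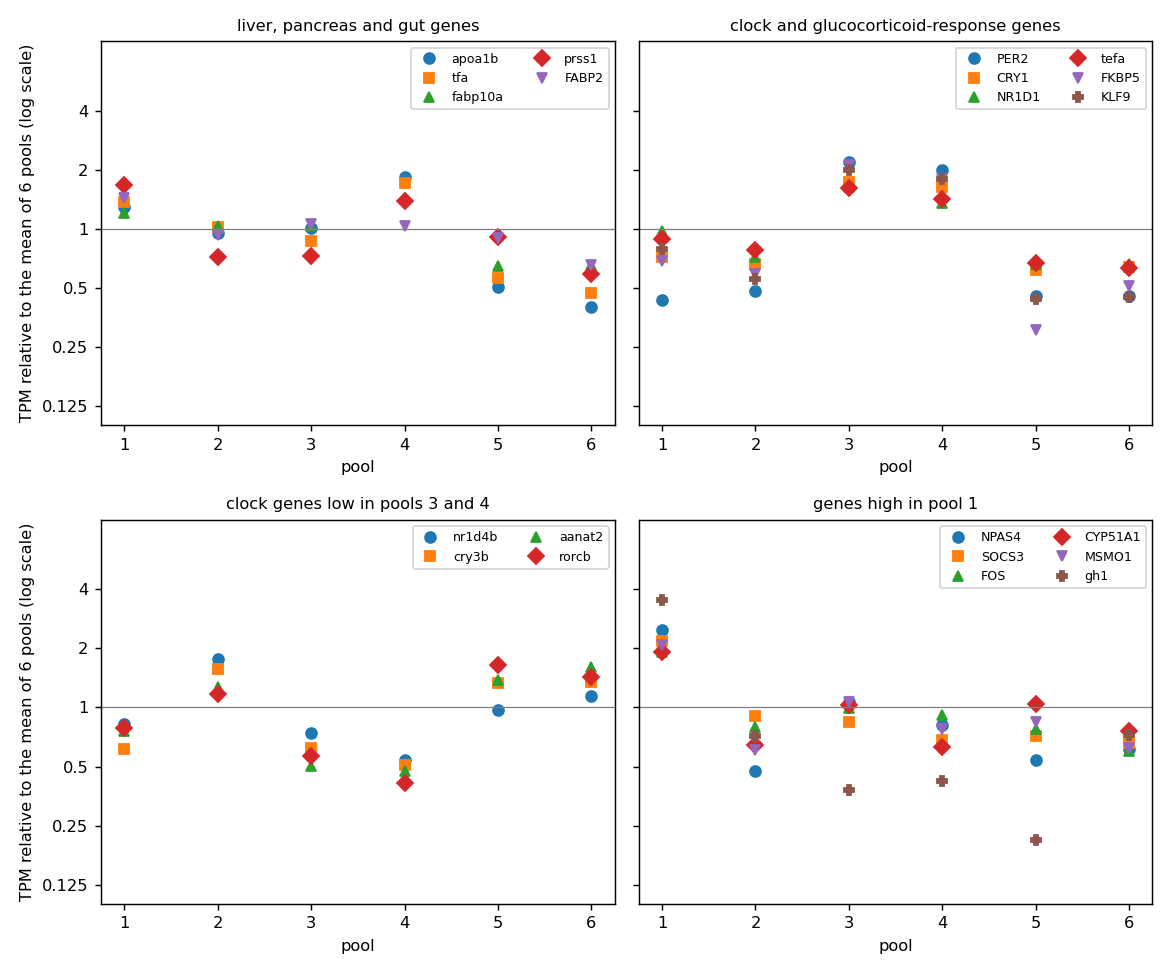
TPM of selected genes in each of the 6 pools relative to the mean of the 6 (log axis), in 4 panels. Liver, pancreas and gut genes are highest in pool 4 or 1, PER2, CRY1, NR1D1, tefa, FKBP5 and KLF9 are highest in pools 3 and 4, aanat2 and rorcb are lowest there, and NPAS4, SOCS3, FOS, CYP51A1, MSMO1 and gh1 are highest in pool 1.

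The 20 genes with the highest biological CV, which is the CV after removal of counting variance, were mostly low in level and mixed in kind. Pool 4 was the highest in 10 and pool 6 the lowest in 10. Of all 1426 variable genes, from which the 20 were drawn, pool 4 was the highest in 575 and pool 6 the lowest in 947. Among the 20, 5 were on a liver list. The acute-phase gene crp2, a C-reactive protein, had a biological CV of 94.3% and was highest in pool 4, at 35.07 TPM, but lowest in pool 1, at 1.55 TPM. Others stood high in a single pool, such as PAOX, a polyamine oxidase, at 14.7 TPM in pool 5 and 3.58 to 6.94 TPM elsewhere, and urgcp at 3.96 TPM in pool 2 against 0.156 to 1.01 TPM. The gene si:ch211-114l13.11 was at 0.5005 and 0.233 TPM in pools 1 and 3 and between 13.03 and 26.1 TPM in the other 4. Of the 20 genes, 3 had no symbol.

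At the other end, the 10 genes with the lowest CV among those with a mean of at least 50 CPM were sec24c, akt2, STAM, SEC62, PLEKHA6, UFD1, HDAC1, EIF3A, MARK2 and DYNC1LI2, with CVs between 1.33% and 2.19%. Sec24c, a cargo-binding subunit of the COPII vesicle coat, had a level of 14.2 ± 1.41 TPM, and HDAC1, a histone deacetylase, 103 ± 7.15 TPM. They were chosen as the least variable, so their low spread describes these pools only.

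Several lists had no variable member, beside 9.41% of all genes. No gene was variable among 84 cytosolic ribosomal protein genes, 94 nuclear respiratory chain genes, 72 translation factors, 35 cell cycle genes, 31 Hox genes, 15 genes of myelinating glia or 13 melanophore genes, though in the last 2 lists, with so few members, a count of 0 lies near that share. Smaller differences still leaned to single pools: 80 of the 84 ribosomal protein genes were lowest in pool 1, beside 23.6% of all genes, and 69 of the 94 nuclear respiratory chain genes highest in pool 4, beside 21.6%. Of 23 genes used as references in quantitative PCR, none was variable. The lowest CVs in that list belonged to lsm12b at 3.46%, TBP at 4.52% and RPS18 at 4.57%, and the highest to SDHA at 16.9% and tuba1b at 16.5%. ARNT2, the reference gene of the study's own PCR assays, had a CV of 9.63% and a level of 25.8 ± 2.90 TPM, with pool 4 the lowest at 20.2 TPM.

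The elmo genes, whose products bind Dock guanine nucleotide exchange factors to activate the GTPase Rac, were all detected. In TPM elmo2 was the highest, with 82.5, 99.4, 99.7, 73.6, 114 and 111 TPM in pools 1 to 6. Elmo1 had 66.6, 69.5, 72.2, 57.6, 71.7 and 72.2 TPM in the same pools. Elmo3 had 5.23 TPM in pool 1 and between 2.21 and 2.78 TPM in the others. Elmo2 lay above elmo1 in 6 of 6 pools, and the lowest elmo2 value, in pool 4, was just above the highest elmo1 value of 72.2 TPM. In TPM pool 4 was the lowest for both genes. In TMM-scaled CPM pool 1 was instead the lowest, at 114 for elmo1 and 56.4 for elmo2, beside 118 and 65.1 in pool 4. Elmo3 lay far below both in every pool.

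The 3 differences were tested within pools on the log2 scale of TPM. The mean log2 ratio of elmo1 to elmo2 was -0.49 ± 0.06 (SE, n = 6), that of elmo1 to elmo3 4.59 ± 0.20 and that of elmo2 to elmo3 5.08 ± 0.26. Each had p = 0.031 in an exact two-sided sign-flip permutation test, the smallest value 6 pools can give, and 0.031 after Benjamini-Hochberg adjustment over the 3. The p-values measure only the spread between these pools. On CPM from the deposited counts, without length, the order of elmo1 and elmo2 reversed: elmo1 had 129 ± 11.2 CPM and elmo2 77.6 ± 13.7 CPM, a log2 ratio of 0.75, with elmo1 higher in 6 of 6 pools. The counts per TPM were 2.19 to 2.53 times larger for elmo1 than for elmo2, so the order in TPM rests on the shorter effective transcript length that the quantification assigned to elmo2. Elmo3 had 5.90 ± 2.13 CPM and lay below both in every pool on this scale too. Its distance from elmo1 was nearly as in TPM, a log2 ratio of 4.51 against 4.59, but its distance from elmo2 shrank from 5.08 to 3.76.

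**Figure D5:**
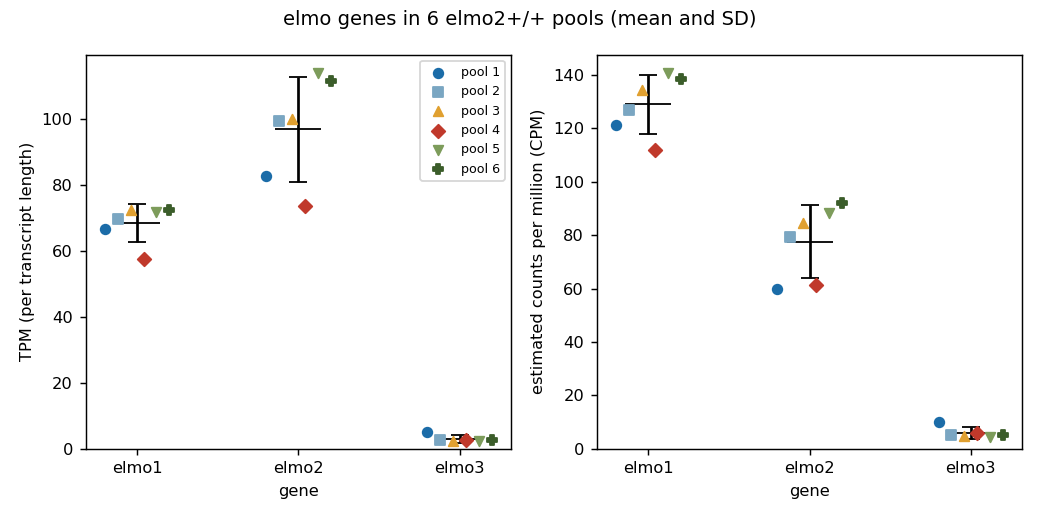
Levels of elmo1, elmo2 and elmo3 in the 6 pools in TPM (left) and in CPM, which ignores length (right); markers are pools, horizontal bars the mean and whiskers the SD. Elmo2 exceeds elmo1 in TPM in every pool and elmo1 exceeds elmo2 in CPM, while elmo3 stays near the base in both panels.

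The Rac pathway list lay near the background. Of 18 elmo, Dock and Rac genes at 5 CPM or more, 2 were variable, 11.11% beside 9.41% of all genes, with a median ratio of 1.35 against 1.37, and the list summed to 437 ± 25.9 TPM with pool 4 the lowest at 386 TPM. Pool 4 was not the lowest when log2 TMM-scaled CPM, centred on the mean of each gene, were averaged over these 18 genes. That average was -0.0019 in pool 4 and lowest in pool 3, at -0.037. The 2 variable genes were RHOG, a small GTPase upstream of Elmo named here because it was variable, and elmo3, which had 10.17 CPM in pool 1 against 4.45 to 5.73 CPM in the other 5, or 208 estimated counts against 90 to 120. Without pool 1 neither was variable.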

How the data were processed

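RNA of 6 elmo2+/+ pools of 30 larvae was analysed. The authors deposited, per sample, unscaled estimated counts per gene, many of them fractional, and TPM, which sum to 1000000 in each sample. The submitters' processing notes name Trim Galore 0.6.4, kallisto 0.4.6 and the genome build GRCz11, without their order or settings. The annotation and any filter are not given in the sources used here. Symbols came from a table that names 29201 of the 32520 Ensembl identifiers, often in human style, and some symbols are shared by several genes.

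Estimated counts were rounded to whole numbers and scaled with TMM in edgeR 4.0.16 under R 4.3.3, with factors between 0.943 and 1.06. DESeq2 1.42.0 was an alternative. Principal components were computed on log2 CPM with a prior count of 2. Other steps used Python 3.11.15 with numpy 2.4.6 and pandas 2.3.3. The calling of variable genes and the estimate of biological variation were tested on simulated data. The design foresaw no test other than the 3 elmo comparisons. Depth was 20245232 to 20939679 estimated counts, so counting error was small for most genes.

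The members and the 51 gene lists were chosen with earlier results of these data known. Genes were named by rule: the 25 most abundant, the elmo genes, up to 3 leading members of each list, all reference genes, the 20 most variable (2-fold or more, at least 5 CPM) and the 10 least variable (at least 50 CPM). A few genes that it takes in are not reported here. Genes outside it are marked as chosen after their values were seen. Alternatives were other filters, folds, scalings, units and pseudocounts, and leaving out each pool. Counts of variable list members without each pool were added after seeing the data. The elmo2-/- samples were not used.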

Additional observations from a re-analysis of the deposited data

Results flagged for a closer look

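For each list sum and each named gene, both in TPM, the gap between the most extreme pool and its neighbour was divided by the range over the 6 pools. A value above the 95% critical value of Dixon's test for a single outlying sample marks a pool that stands far from the other 5. Chance alone marks about 1 in 20 groups, and over all 15162 genes at 5 CPM or more 983, 6.48%, were marked. Here 7 of 51 list sums and 28 of 238 named genes were marked. Of these 35, 18 were marked for pool 1, 8 for pool 4 and 3 for pool 6. Since many were named for a high value in pool 1, that number supports nothing by itself.

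Pool 1 stood above the other pools in the sums of pituitary hormones (0.821), immediate early genes (0.777) and cholesterol synthesis genes (0.781). The same held for gh1 (0.847), POMC (0.830), SOCS3 (0.839), FOS (0.704), NPAS4 (0.704), egr1 (0.686), MSMO1 (0.689), CYP51A1 (0.680), FDPS (0.651), nfkbiaa (0.656), MYH7 (0.684), ENSDARG00000112287 (0.676) and elmo3 (0.811). Nfkbiaa encodes an inhibitor of NF-kappa B and FDPS farnesyl diphosphate synthase. In 2 abundant genes pool 1 was instead the lowest: si:dkey-151g10.6 (0.661) and tubb4b (0.732), a beta-tubulin.

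The pools marked for the other genes were several. Pool 4 stood apart in the sums of elmo, Dock and Rac genes (0.712) and Hox genes (0.737), both of which were lowest there, and in calm1a (0.662), RAC3 (ENSDARG00000020795, 0.708), HOXB3 (0.720), ARNT2 (0.697), RNF220 (ENSDARG00000075183, 0.739) and ces3 (0.632). Of these, ces3 was highest in pool 4 and the others lowest in TPM. In TMM-scaled CPM calm1a and HOXB3 were lowest in pool 1, at 254 and 47.6, beside 271 and 48.6 in pool 4. Centred log2 TMM-scaled CPM averaged over the Hox genes were also lowest in pool 1, at -0.111, beside -0.105 in pool 4. For the elmo, Dock and Rac genes that average was lowest in pool 3. Pool 3 stood apart in the sum of circadian clock genes (0.666) and in si:dkeyp-73d8.9 (0.646), pool 2 in lyz (0.635), plekhs1.1 (0.662) and urgcp (0.775), pool 5 in PAOX (0.698), and pool 6 in the sum of vitellogenins (0.709), vtg1 (0.865) and vtg5 (0.825), each of them highest in that pool.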

How the results depend on the processing

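No paired analysis was possible because no groups are compared. The number of genes with a mean of at least 1 TPM, 21292, was 26529 at 0.1 TPM, 8574 at 10 TPM, and 21163 to 21335 with a pool left out. The share of the 10 most abundant genes was 11.7% of estimated counts, 13.6% without mitochondrially encoded genes, and 16.7% to 17.2% with a pool left out. That of the 100 most abundant was 33.0%, 41.3%, and 45.2% to 45.9%. The 1426 variable genes became 3280 with a minimum of 1 CPM, 548 with 20 CPM, 4767 at 1.5-fold, 438 at 3-fold, and 905 (without pool 6) to 1378 with a pool left out. The biological coefficient of variation was 0.128 by the median dispersion of DESeq2, 0.179 without a filter beyond 1 count, and 0.150 to 0.179 with a pool left out. The first component held 65.8% over the 1000 genes of highest variance, 66.6% over genes of at least 20 CPM, and 51.0% to 66.6% with a pool left out. The 7 list sums that differed 2-fold were 5 to 7 under other units and with a pool left out. In CPM the log2 ratio of elmo1 to elmo2 reversed from -0.49 to 0.75. With a pool left out the 3 log2 ratios were -0.53 to -0.45, 4.51 to 4.78 and 4.96 to 5.30 (elmo1 to elmo2, elmo1 to elmo3, elmo2 to elmo3), and each p was 0.0625, the smallest that an exact test over 5 pools can give. Of 306 list ratios with a pool left out, 39 moved by more than 1 SD over pools, 16 of them without pool 1. Of 150 list values under other units, 47 moved by more than 1 SD. Depth limits mainly genes between 5 and 20 CPM, with a median counting CV of 6.89%.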

Other observations

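Several further tissues of the larva were also measured, and some differed between pools. Of 20 connective tissue collagen and matrix genes 5 were variable, and of 11 neutrophil and macrophage genes 4, beside 9.41% of all genes. Without pool 6 both counts were 3, of 20 and of 11, beside 5.96% of all genes. Of 23 cartilage and bone genes 2 were variable, of 6 interferon response genes 1, and of 15 myelinating glia and 3 lymphocyte and thymus genes none. Connective tissue collagens and matrix genes summed to 2187 ± 352 TPM, led by SPARC, a collagen-binding matrix protein, at 613 ± 107 TPM and col1a1a, a type I collagen chain, at 476 ± 68.4 TPM. The cartilage gene COL2A1, the type II collagen chain, stood at 233 ± 19.5 TPM, and its TMM-scaled CPM had a CV of 4.77%. Myelin was present at 120 hpf, with mbpb and mbpa, 2 myelin basic protein genes, at 108 ± 10.4 and 94.6 ± 11.3 TPM. Immune genes were low by comparison: neutrophil and macrophage genes summed to 175 ± 27.04 TPM, lymphocyte and thymus genes to 118 ± 6.14 TPM and interferon response genes to 70.4 ± 13.9 TPM, the last highest in pool 2 at 95.4 TPM.

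Skin, kidney and detoxification genes varied in more members than the background share of 9.41%. Of 21 skin ionocyte genes 10 were variable, of 26 skin keratin genes 10 (4 without pool 6), of 23 pronephros genes 5 (2 without pool 6), and of 12 genes of the cytochrome P450 family 1 and aryl hydrocarbon list 6 (3 of 13 without pool 6). Without pool 6 the share over all genes was 5.96%. The larval keratin cyt1 ranged from 1238 TPM in pool 2 over 2249 to 2864 TPM in pool 5, and pools 1 and 2 lay below the other 4. Gsta.1, a glutathione transferase, ranged from 154 TPM in pool 6 over 228 to 427 TPM in pool 1. CDH17, a cadherin of the pronephric tubule and gut, ranged from 28.9 TPM in pool 6 over 52.9 to 79.8 TPM in pool 1. Apoeb, an apolipoprotein also made by glia and yolk cells, ranged from 163 TPM in pool 5 over 270 to 476 TPM in pool 4, while FABP7 of radial glia ranged from 488 to 609 TPM with pool 4 the lowest. In TMM-scaled CPM FABP7 was lowest in pool 1, at 202, beside 222 in pool 4.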
